A study of Mus musculus with 5 samples.

Results

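The 9 genes described here are interferon-inducible regulators and antiviral effectors: Ifi27l2a, Irf7, Isg15, Isg20, Bst2, Rsad2, Usp18, Zbp1 and Rtp4. They were chosen by name, 9 of the 52542 gene rows of the count files, and all 9 had counts among the 15952 genes found in the cells kept. T cells (CD45+, CD11b-, TCRβ+) had been sorted 1 per well from the brain parenchyma of mice, without the choroid plexus, and sequenced by a plate-based method that counts unique molecular identifiers (UMIs, tags that mark single captured RNA molecules). All 5 mice carried loxP-flanked glucocorticoid receptor alleles (strain Grl1loxP/loxP), all received 2 sessions of electrical foot shock, and all were sampled on day 14 after that stress. In 3 mice (207, 208 and 215, aged 18, 18 and 19 weeks) TAT-CRE, a cell-permeable recombinase, had been injected into the brain ventricles to lower the receptor at the choroid plexus, while 2 mice (216 and 218, aged 19 and 16 weeks) had received PBS. The T cells analysed come from outside the tissue that was the target, and the labels do not say whether a library pooled several animals.

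Interferons bound to their receptors activate transcription factors that enter the nucleus and switch on genes that carry an interferon-stimulated response element. In T cells these genes are known to be induced together after contact with interferon. Among the 9 genes, Irf7 encodes a transcription factor that amplifies interferon production, Usp18 a protease that removes the ISG15 modifier and restrains receptor signalling, and Zbp1 a sensor of nucleic acids in the left-handed Z form. Isg15 encodes a ubiquitin-like modifier, Isg20 an exonuclease that degrades RNA, Bst2 (tetherin) a membrane protein that holds budding virus particles at the cell surface, and Rsad2 (viperin) an enzyme that makes a chain-terminating nucleotide. Rtp4 encodes an interferon-inducible protein known to restrict RNA viruses, and Ifi27l2a a small interferon-inducible protein of the Ifi27 family.

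Filters left 1482 cells: TAT-CRE 207, 208 and 215 gave 311, 303 and 298 of them, against 296 and 274 for PBS 216 and 218. Spike-ins aside, a cell needed 400 or more UMIs, with no more than 30% of them mitochondrially encoded. Depth differed between the mice, with 692346, 362457 and 588185 UMIs in the TAT-CRE mice, against 554994 and 839188 in the PBS mice. TAT-CRE 208 stood apart by the lowest median depth (993 UMIs per cell, against 1410 to 2660 in the others) and by the lowest share of ribosomal RNA (28.3%, against 43.9% to 48.0%). Each mouse had its own plate and amplification batch, so these cannot be told apart from the mouse, and no within-batch comparison exists. No barcode pair was shared between plates. The T cell markers fixed for the check (Cd3d, Cd3e, Cd3g, Trbc1, Trbc2, Lck, Cd2, Thy1) gave a UMI in 1367 cells (92.2%). Nr3c1, the receptor gene, gave 175, 141 and 156 CPM (UMIs per 1000000 kept UMIs of a mouse) in the TAT-CRE mice, against 191 and 222 in the PBS mice, which checks nothing about the choroid plexus.

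The promoters in the RefSeq table (build GRCm38.p6) covered 5 of the 9 genes in 7 windows of 300 bases, running from 250 bases before a transcription start to 50 after it. They were searched on both strands for the paired core of the interferon-stimulated response element, GAAANNGAAA or TTTCNNTTTC, since the genes were detected together. The windows of Isg15, Bst2 and Rsad2 held it, as did 3.44% of 32851 promoter windows of the same length. The 250 bases before the start are shown for these 3 genes, each on the gene's own strand, with the matches in capitals.
Isg15, chr4:156200819-156201068, minus strand: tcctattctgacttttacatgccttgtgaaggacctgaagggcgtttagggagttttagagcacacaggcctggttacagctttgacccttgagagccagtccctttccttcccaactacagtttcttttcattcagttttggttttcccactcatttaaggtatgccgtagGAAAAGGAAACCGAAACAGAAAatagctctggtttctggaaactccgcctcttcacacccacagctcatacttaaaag
Bst2, chr8:71537473-71537722, minus strand: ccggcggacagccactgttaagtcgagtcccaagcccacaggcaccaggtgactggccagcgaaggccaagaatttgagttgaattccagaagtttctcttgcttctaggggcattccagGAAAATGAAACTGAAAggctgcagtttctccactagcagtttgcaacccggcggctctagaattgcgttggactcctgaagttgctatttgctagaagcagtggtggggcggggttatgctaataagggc
Rsad2, chr12:26456453-26456702, minus strand: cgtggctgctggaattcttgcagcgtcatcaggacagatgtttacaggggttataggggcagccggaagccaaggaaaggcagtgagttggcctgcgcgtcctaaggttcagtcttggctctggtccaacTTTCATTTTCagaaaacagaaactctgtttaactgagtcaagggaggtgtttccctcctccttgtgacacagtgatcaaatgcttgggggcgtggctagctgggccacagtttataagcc
Isg15 has 3 matches that overlap one another, beginning 78, 72 and 66 bases before the start, and Bst2 has 2 that overlap, beginning 130 and 124 bases before it. The single match of Rsad2 reads on the other strand and begins 120 bases before the start. These letters were not found in the windows of Irf7 and Isg20. A match describes the sequence and is no evidence of a bound factor.

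In the GENCODE M21 annotation of build GRCm38 all 9 are protein-coding. Ifi27l2a lies on chromosome 12 from 103442167 to 103443680, Irf7 on chromosome 7 from 141262706 to 141266481 and Isg20 on the same chromosome from 78913424 to 78920396. Isg15 lies on chromosome 4 from 156199424 to 156200818, Bst2 on chromosome 8 from 71534255 to 71537456 and Rsad2 on chromosome 12 from 26442746 to 26456452. Usp18 lies on chromosome 6 from 121245906 to 121270917, Zbp1 on chromosome 2 from 173206612 to 173218923 and Rtp4 on chromosome 16 from 23520291 to 23614222. Whether counting used the strand is not given, so genes that overlap may share counts. Irf7 overlaps Phrf1 on the opposite strand by 45 bases, Usp18 overlaps Gm44148 there by 15715 bases, and Rtp4 overlaps Masp1 by 525 bases and, on its own strand, Gm45338 by 39791 bases. Of the near relatives of Ifi27l2a, Ifi27l2b had 0 UMIs and Ifi27 had 291 UMIs in 116 cells.

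Most T cells showed none of the 9 genes, and Ifi27l2a accounted for most of the detection. At least 1 of them had a UMI in 449 of the 1482 cells (30.3%, exact 95% interval 28.0% to 32.7%). Ifi27l2a was found in 272 cells (18.4%, 16.4% to 20.4%). Bst2 was found in 81 cells (5.47%, 4.36% to 6.75%), and Isg20 and Zbp1 in 64 cells each (4.32%, 3.34% to 5.48%). Irf7 followed with 49 cells (3.31%, 2.46% to 4.35%) and Rtp4 with 46 (3.10%, 2.28% to 4.12%). The rarest were the modifier gene Isg15 in 23 cells (1.55%, 0.986% to 2.32%), Rsad2 in 18 (1.21%, 0.721% to 1.91%) and the protease gene Usp18 in 17 (1.15%, 0.670% to 1.83%). In this order only the interval of Ifi27l2a was clear of its neighbour's, and intervals here cover counting error only. The 20 empty wells, with 17 to 160 UMIs each, held 0 UMIs of the 9 genes, which allows a share of up to 15% of such wells.

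Cells that had a UMI of one of these genes often had several. Irf7 gave 3.57 UMIs per positive cell, above 97.4% of 1285 genes found in a like number of cells (0.8 to 1.25 times as many), whose median was 2.49. Rsad2 gave 3.44 (above 95.5% of 1620 such genes), Rtp4 3.26 (above 91.4%) and Ifi27l2a 3.21 (above 84.3%). Bst2 gave 1.74 UMIs per positive cell, above 16.6% of 850 such genes, and 49 of its 81 cells had 1 UMI. Ifi27l2a reached 23 UMIs in 1 cell and had 5 or more in 62 cells. Since several UMIs per cell were general in these libraries, UMIs of a cell are not independent draws. Single cells also weigh heavily in the rarer genes. The 5 richest cells held 63.9% of the 36 UMIs of Usp18, 56.5% of the 62 of Rsad2 and 47.5% of the 59 of Isg15, against 10.9% of the 873 of Ifi27l2a.

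**Figure D1:**
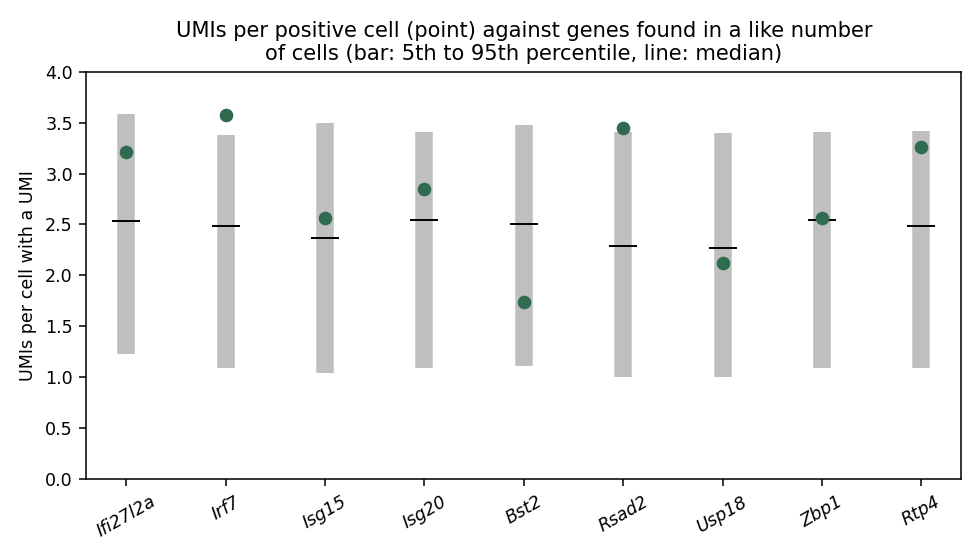
UMIs per cell with a UMI (vertical axis) for each of the 9 genes as points, beside the 5th to 95th percentile (bar) and median (line) of genes found in 0.8 to 1.25 times as many cells. Irf7 (3.57) and Rsad2 (3.44) lie above their bars and Bst2 (1.74) lies in the lower part of its bar.

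The genes were found together in the same cells more often than independent detection gives. The expected numbers were computed from each gene's share within the same mouse and the same of 4 bands of depth, because deeper cells show more of every gene. At least 3 of the 9 genes were found in 41 cells, against 13.8 expected, a ratio of 2.97. At least 4 were found in 20 cells, against 1.20 expected. Correspondingly, cells with none were more frequent (1033, against 967 expected) and cells with exactly 1 less frequent (337, against 412). At least 2 were found in 112 cells, close to the 104 expected. This is a description over cells of 5 mice, with no test. Kept cells ran from 401 to 11016 UMIs, so cells of 1 band still differed in depth. How far that difference enters these ratios, and those of the pairs below, was not tested. No ratios for pairs of other genes are given beside them.

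**Figure D2:**
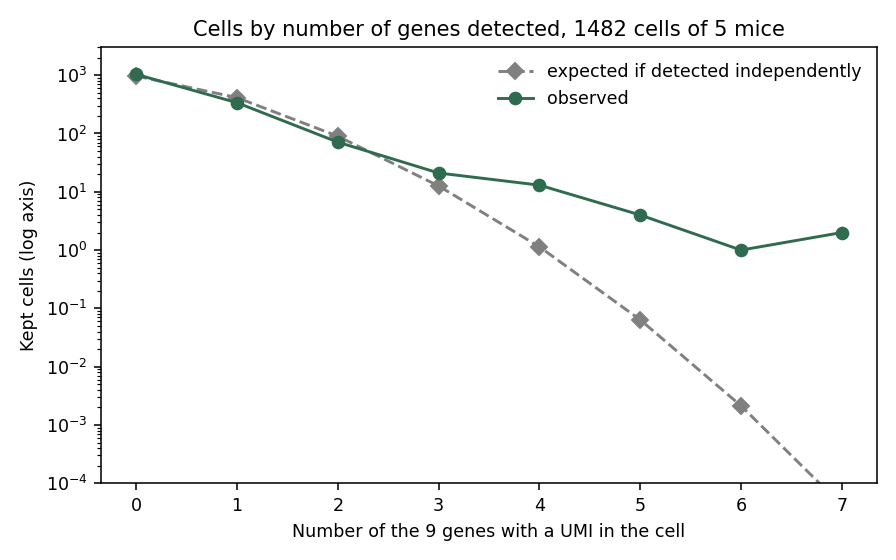
Number of kept cells (vertical axis, log scale) by how many of the 9 genes had a UMI in the cell (horizontal axis), observed (circles) and expected under independent detection within mouse and depth band (diamonds). The curves part from 3 genes upward, with 13 cells at 4 genes against 1.14 expected and 2 cells at 7 genes.

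Cells with at least 3 of the genes outnumbered the expected count in every mouse, while cells with at least 2 did so in all but TAT-CRE 207, which had 37 against 38.6 expected. Cells with at least 3 numbered 13, 15 and 3 in TAT-CRE 207, 208 and 215, against 3 and 7 in PBS 216 and 218. The ratios to the expected number were 2.31, 3.53 and 2.98 in the TAT-CRE mice, against 5.67 and 2.93 in the PBS mice, so the groups overlapped in this ratio. Cells with at least 4 numbered 9, 7 and 2 in the TAT-CRE mice, against 1 and 1 in the PBS mice. The expected numbers were 0.478, 0.415 and 0.052 in the TAT-CRE mice, against 0.025 and 0.234 in the PBS mice. Ratios were therefore 18.8, 16.9 and 38.4, against 40.1 and 4.28, and the groups overlapped here too.

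The 2 cells with most genes had 7 each. The cell of TAT-CRE 215, with 3777 UMIs and no coreceptor UMI, had 8 UMIs of Irf7, 6 of Ifi27l2a, 3 of Usp18, 3 of Zbp1 and 1 each of Isg20, Bst2 and Rsad2. The cell of TAT-CRE 207, with 2711 UMIs and a Cd8 UMI, had 16 UMIs of Ifi27l2a, 6 of Zbp1, 3 of Isg20, 2 of Isg15 and 1 each of Bst2, Usp18 and Rtp4. Cells of this kind also occurred in the PBS mice. A cell of PBS 218 with 5168 UMIs had 9 UMIs of Ifi27l2a, 3 of Bst2, 3 of Zbp1 and 1 each of Irf7 and Isg15, and a cell of PBS 216 with 2247 UMIs had 8 of Zbp1, 3 of Isg20, 2 of Ifi27l2a and 1 each of Isg15 and Bst2.

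All 36 pairs of the 9 genes were seen in at least 1 cell, and all 36 were seen more often than expected, with a median ratio of 2.85. The pairs are not separate observations, since a cell with many of the genes counts in many pairs. Cells with exactly 2 of the genes numbered 71, fewer than the 89.7 expected. The sensor gene Zbp1 and the modifier gene Isg15 shared 9 cells, against 1.08 expected, in all 5 mice (6 cells of TAT-CRE mice and 3 of PBS mice). This ratio of 8.35 was the highest among the 25 pairs with at least 5 cells. Isg20 shared 6 cells with Rsad2 (0.798 expected), 6 with Usp18 (0.884 expected) and 6 with Isg15 (0.941 expected). Irf7 shared 5 cells with Usp18 (0.853 expected) and 11 with Bst2 (3.98 expected). The pair with most cells was Ifi27l2a and Bst2, with 33 against 19.3 expected. The lowest ratio among the 25 pairs, 1.28, belonged to Ifi27l2a and Isg20 (21 cells against 16.4).

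The genes differed in how often they occurred alone. Of the 18 cells with Rsad2, 13 (72.2%) had another of the 9 genes, against 7.57 expected. Of the 49 cells with Irf7, 31 (63.3%) did, against 22.1 expected. Ifi27l2a occurred alone most often, with another gene in 84 of its 272 cells (30.9%, 74.0 expected).

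**Figure D3:**
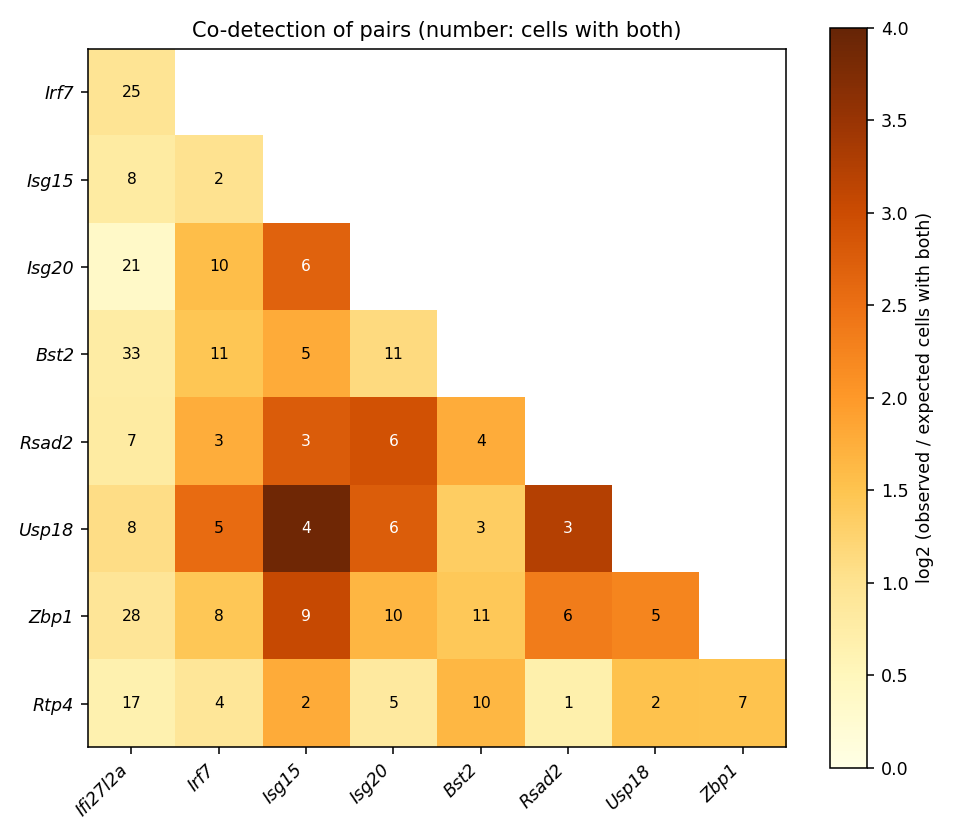
Co-detection of each pair of the 9 genes, with the colour giving log2 of observed over expected cells and the number in each box the cells with both. No box falls at or below 0; the darkest boxes lie among Isg15, Isg20, Rsad2, Usp18 and Zbp1, and boxes with Ifi27l2a hold the most cells at low ratios.

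Genes most like the set were sought among 6175 others found in at least 20 cells, by their detection in the 112 cells that had at least 2 of the 9. Cmpk2, a nucleotide kinase gene, was found in 10 of these cells against 2.11 expected (ratio 4.75). It is the neighbour of Rsad2 on chromosome 12, on the other strand and 12751 bases away. Ifit1, an antiviral gene whose product binds foreign RNA, was found in 24 against 5.63 (4.26), and Ifit3b of the same family in 10 against 2.41 (4.16). Trim30d (3.69), the double-stranded RNA sensor gene Ifih1 (3.56), Phf11c (3.51), the interferon-inducible GTPase gene Tgtp2 (3.29) and Ifi213 (3.22) completed the 8 highest ratios. The median ratio of the 1520 genes found in at least 10 of these cells was 1.12.

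Markers of other cell types were set beside the cells that had several of the genes. T cell markers were found in 106 of the 112 cells, against 107.9 expected. Of 6 markers of plasmacytoid dendritic cells, which make much interferon and carry Bst2, the defining Siglech, Klk1, Cox6a2 and Tcf4 had 0 UMIs in all kept cells, and none of the 6 was found in the 112. Their summed level was 2.76 to 20.2 CPM in TAT-CRE mice, against 0 to 3.57 in PBS mice, from Ccr9 and Spib. Of 6 microglial markers, Tmem119, P2ry12 and Csf1r had 0 UMIs, and the list was found in 2 of the 112 cells (3.51 expected). Of the monocyte list, Lyz2, Fcgr1, Cd14 and Csf1r had 0 UMIs, and it was found in 14 of them (10.1 expected), through Ccr2, which activated T cells also express. The summed levels of the microglial list were 3.40 to 74.5 in TAT-CRE mice, against 32.2 to 84.7 in PBS mice, and those of the monocyte list 119 to 145 and 84.7 to 131. The B cell list, with Cd79a at 0 UMIs, was found in 12 of the 112 cells (12.8 expected) and ran from 95.3 to 163 in TAT-CRE mice, against 70.3 to 94.1 in PBS mice. The neutrophil list, with S100a8, S100a9 and Mpo at 0, was found in 9 (7.65 expected) through Elane, at 17.002 to 35.9 in TAT-CRE mice, against 19.8 to 46.5 in PBS mice. The endothelial list, with Cldn5, Cdh5 and Flt1 at 0, was found in 16 (13.5 expected) through Pecam1, at 18.7 to 147 in TAT-CRE mice, against 23.4 to 34.6 in PBS mice. The NK cell list was found in 7 (7.45 expected) and ran from 40.8 to 99.7 in TAT-CRE mice and from 95.3 to 191 in PBS mice. The part of these cell types in the results was not tested.

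The comparison that the design implies is of TAT-CRE with PBS mice, and none of the 9 genes passed it after adjustment over all genes. UMIs were summed per mouse and tested with edgeR's quasi-likelihood test. It called 0 of 6341 genes at an adjusted p under 0.05 (0% of those tested), with 240 at an unadjusted p under 0.05, while DESeq2 called 1 gene (0.0158%), Ifit3. Of the 9 genes, 8 passed the filter on low counts, and Isg15 did not. The adjusted p was 0.999 for each of the 8. Levels below are counts per 1000000 UMIs kept from a mouse (CPM), and means carry the SD over 3 TAT-CRE mice and over 2 PBS mice. In sums over a mouse, fewer positive cells and less RNA per cell cannot be told apart.

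Every TAT-CRE mouse had a higher level of Ifi27l2a than either PBS mouse. It had 429, 546 and 257 CPM in TAT-CRE 207, 208 and 215, against 171 and 157 in PBS 216 and 218. The groups did not overlap, and TAT-CRE 215 was nearest to the PBS mice. The means were 411 ± 146 and 164 ± 9.81, with a log2 fold change of 1.20 ± 0.27 (SE), an unadjusted p of 7.51e-04 and an adjusted p of 0.999 by edgeR. DESeq2 gave an adjusted p of 0.275, and edgeR without the filter one of 0.0537. Positive cells numbered 91, 64 and 44 in the TAT-CRE mice, against 36 and 37 in the PBS mice.

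Rsad2 and Usp18 were also highest in the 3 TAT-CRE mice, on few counts. Rsad2, the viperin gene, had 16, 28 and 11 UMIs in the TAT-CRE mice, against 6 and 1 in the PBS mice, or 39.7 ± 32.6 and 6.0 ± 6.80 CPM. Its log2 fold change was 2.56 ± 0.99 (SE; edgeR unadjusted p = 0.0223, adjusted p = 0.999), and it was 1.59 without PBS 218 and 4.64 without PBS 216, when the remaining PBS mouse had 1 UMI. The PBS values rest on 1 positive cell in each mouse. Usp18 had 8, 10 and 10 UMIs in the TAT-CRE mice, against 1 and 7 in the PBS mice, or 18.7 ± 8.15 and 5.07 ± 4.62 CPM. Its log2 fold change was 1.66 ± 1.16 (SE; edgeR unadjusted p = 0.178). That value was 1.04 without PBS 216 and 3.05 without PBS 218. PBS 218 had 4 cells positive for Usp18, more than the 3 each of TAT-CRE 207 and 215. At equal depth the share of PBS 218 was 0.258%, close to the 0.300% of TAT-CRE 207.

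The other regulators, Irf7 and Zbp1, overlapped between the groups. Irf7 had 63.6, 174 and 22.1 CPM in the TAT-CRE mice, against 30.6 and 45.3 in the PBS mice, so TAT-CRE 215 was lowest and TAT-CRE 208 highest of all 5. The means were 86.5 ± 78.4 and 38.0 ± 10.4, with a log2 fold change of 0.94 ± 0.60 (SE). That value was 0.23 without TAT-CRE 208 and 1.36 without TAT-CRE 215. Zbp1 had 57.8, 77.3 and 47.6 in the TAT-CRE mice, against 63.1 and 39.3 in the PBS mice. Its log2 fold change of 0.14 ± 0.44 was smaller than its error and became -0.20 without PBS 218.

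The modifier gene Isg15 and the remaining effectors overlapped too. Isg15 had 5, 29 and 7 UMIs in the TAT-CRE mice, against 5 and 13 in the PBS mice, and TAT-CRE 208 alone, with 10 of the 15 positive cells of its group, stood out. Isg20 had 89.6, 96.6 and 40.8 CPM in the TAT-CRE mice, against 48.6 and 40.5 in the PBS mice (log2 fold change 0.65 ± 0.45). Bst2 had 56.3, 96.6 and 30.6 in the TAT-CRE mice, against 21.6 and 44.1 in the PBS mice (0.72 ± 0.53, with 0.34 without PBS 216 and 1.29 without PBS 218). Rtp4 had 63.6, 102 and 13.6 in the TAT-CRE mice, against 30.6 and 52.4 in the PBS mice (0.33 ± 0.61, and -0.05 without TAT-CRE 208). In Irf7 and Rtp4 the lowest of the 5 values belonged to TAT-CRE 215.

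**Figure D4:**
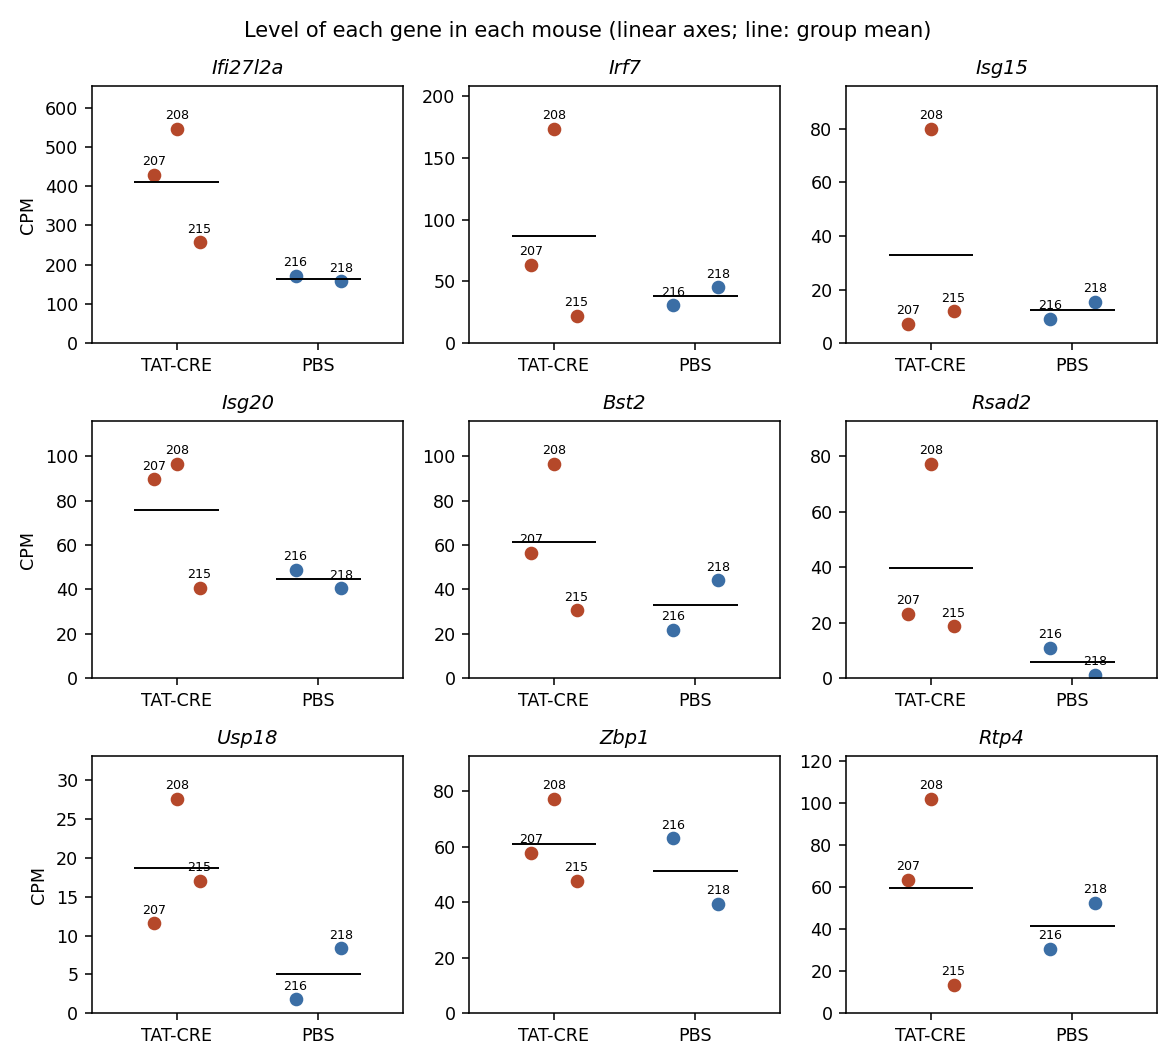
CPM (vertical axis, linear from 0, own scale per panel) of the 9 genes in each mouse, TAT-CRE left and PBS right, with lines at the group means. TAT-CRE 208 is the highest point in all 9 panels, and the groups do not overlap for Ifi27l2a, Rsad2 and Usp18.

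Across the 9 genes, the mean level was higher in TAT-CRE mice for all 9, but without TAT-CRE 208 it was lower for Isg15 and Rtp4, and without PBS 218 it was lower for Zbp1. The groups did not overlap for 3 of the 8 tested genes, with every TAT-CRE mouse above both PBS mice, as for 10.3% of the 6341 genes tested. At an unadjusted p under 0.05, edgeR put 2 of the 8 (Ifi27l2a and Rsad2) higher in TAT-CRE mice, against 2.14% of all genes tested. The median log2 fold change of the 8 was 0.83, beside 0.00 for all genes tested, of which 50.2% were positive. Rare genes can pass the filter through their TAT-CRE counts alone, so these numbers describe the genes that passed and support nothing about the set. TAT-CRE 208, the shallowest library, was the highest of the 5 mice for 9 of 9 genes in CPM. It was highest for 6 of 9 when ribosomal RNA was left out of the total. In shares at equal depth, with ribosomal RNA counted in that depth, it was highest for 7 of 9. Without TAT-CRE 208 the log2 fold change was 1.13 for Ifi27l2a and 1.91 for Rsad2.

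Shares of positive cells were compared at equal depth, as the share expected after thinning every cell to 400 UMIs, ribosomal RNA included, here and below. At least 1 of the 9 genes was then found in 19.1%, 21.2% and 12.7% of cells of TAT-CRE 207, 208 and 215, against 10.5% and 10.6% of those of PBS 216 and 218. The unthinned shares were 43.1%, 33.3% and 25.5% in the TAT-CRE mice, against 21.3% and 27.4% in the PBS mice. The thinned groups did not overlap, while the unthinned share of PBS 218, the deepest library, lay above that of TAT-CRE 215. The thinned means were 17.7% ± 4.45 and 10.6% ± 0.0949, a difference of 7.11 points, or 5.34 points without TAT-CRE 208. TAT-CRE 208 had the lowest share of ribosomal RNA (28.3%), so the mice were not at equal depth in other RNA. With ribosomal RNA left out and cells thinned to 200 UMIs, the difference was 6.12 points. After thinning to 400 UMIs, at least 2 genes were expected in 3.60%, 5.30% and 1.02% of cells of the TAT-CRE mice. The PBS mice gave 0.794% and 0.925%, with TAT-CRE 215 close to them. Of single genes, Ifi27l2a had thinned shares of 11.6%, 11.8% and 7.48% in the TAT-CRE mice, against 5.25% and 4.19% in the PBS mice. Its difference alone was 5.59 points, beside the 7.11 for at least 1 gene. In thinned shares the groups were also apart for Rsad2 and Usp18, on few cells. They overlapped for Irf7, Isg15, Isg20, Bst2, Zbp1 and Rtp4. Sets of other genes were not put beside these shares, which describe mainly Ifi27l2a. No p is given for these summaries. With 3 mice against 2, an exact permutation test cannot go below 0.10 one-sided.

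Cells were next divided by coreceptor UMI into those with Cd4 only (85 cells), those with Cd8a or Cd8b1 only (630), those with both (25) and those with neither (742). A class rests on single UMIs and so on depth. Cells with neither had a median of 1315.5 UMIs, against 1985.5 in cells with a Cd8 UMI, and cannot be taken as lacking the coreceptors. Of the 112 cells with at least 2 of the 9 genes, 8 had a Cd4 UMI only, 55 a Cd8 UMI only, 3 had both and 46 neither.

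Detection of the genes was not confined to one class. At equal depth, at least 1 gene was found in 21.3%, 26.2% and 13.0% of Cd8-UMI cells of the TAT-CRE mice and in 12.6% and 11.6% of those of the PBS mice. In cells with neither UMI the shares were 17.4%, 19.4% and 11.3% in the TAT-CRE mice, against 8.53% and 9.89% in the PBS mice. In both classes every TAT-CRE mouse lay above both PBS mice, by a narrow margin for TAT-CRE 215. Ifi27l2a again made up most of this detection. It was found in 123 of the 219 Cd8-UMI cells with at least 1 gene, and in 115 of the 190 such cells with neither UMI. Cd4-UMI cells, only 22, 19 and 23 in the TAT-CRE mice, against 13 and 8 in the PBS mice, gave 12.6%, 18.5% and 19.8% in the TAT-CRE mice, against 13.4% and 8.67% in the PBS mice, and here the groups overlapped. Whether the difference between the groups varies with the class was not tested.

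**Figure D5:**
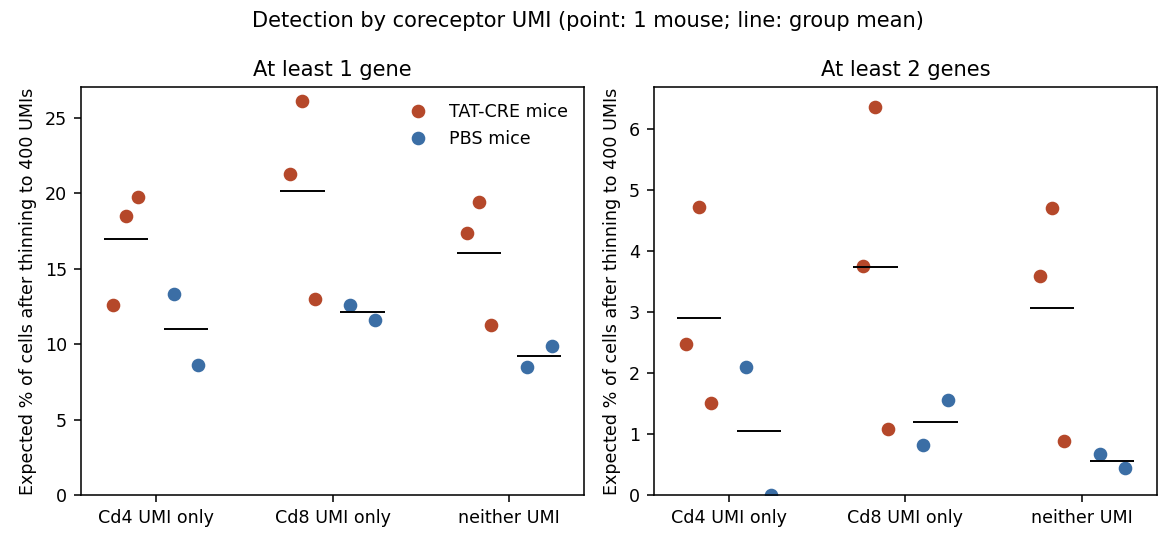
Expected percent of cells with at least 1 (left panel) and at least 2 (right panel) of the 9 genes after thinning to 400 UMIs, by coreceptor UMI, with 1 point per mouse, TAT-CRE left of PBS in each class, and lines at group means. For at least 1 gene the groups are apart in Cd8-UMI cells and in cells with neither UMI and overlap in Cd4-UMI cells.

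Among Cd8-UMI cells, Ifi27l2a again showed the clearest difference between the groups. It had 437, 611 and 205 CPM in the TAT-CRE mice, against 165 and 147 in the PBS mice, and the groups did not overlap. The means were 417 ± 204 and 156 ± 12.9 (log2 fold change 1.26 ± 0.36 SE, edgeR unadjusted p = 0.00521, adjusted p = 1.00). Rsad2 had 5, 20 and 10 UMIs in these cells of the TAT-CRE mice, against 6 and 0 in those of the PBS mice (log2 fold change 2.67 ± 1.39). That value was 1.51 without PBS 218 and 7.19 without PBS 216, when the remaining PBS mouse had 0 UMIs. Irf7, at 0.10 ± 0.78, and Bst2, at 0.02 ± 0.73, had log2 fold changes far smaller than their errors, and both turned negative without some of the mice. EdgeR called 0 of 4013 genes in these cells (0%), with 123 at an unadjusted p under 0.05, and DESeq2 called 0. Of the 7 members of the set that were tested, 1 (Ifi27l2a) was higher at an unadjusted p under 0.05, against 1.72% of all genes. Isg15 and Usp18 did not pass the filter here.

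Cells with neither coreceptor UMI gave a like picture for Ifi27l2a, with 512, 444 and 266 CPM in the TAT-CRE mice, against 159 and 162 in the PBS mice. In Cd4-UMI cells it had 244, 465 and 453 in the TAT-CRE mice, against 397 and 223 in the PBS mice, from 6, 6 and 8 and from 3 and 2 positive cells. The levels of the Cd4-UMI cells therefore overlapped between the groups, with a PBS mouse among the higher values.

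Between the classes within the same mice, Ifi27l2a was the single member with enough counts for a test. It was found in 25 of 85 Cd4-UMI cells (29.4%, exact 95% interval 20.02% to 40.3%) and 123 of 630 Cd8-UMI cells (19.5%, 16.5% to 22.8%). At equal depth the means over 5 mice were 10.5% ± 4.73 and 8.30% ± 4.38 (SD), with the Cd4-UMI cells higher in 4 of 5 mice. With the mouse as a block, its log2 fold change of Cd4-UMI over Cd8-UMI cells was 0.35 ± 0.41 (SE, edgeR adjusted p = 0.981), and it turned to -0.43 without the filter on low counts. That fit called 2 of 728 genes (0.275%) apart from the coreceptor genes themselves: Ccl5 and Ly6c2, both lower in Cd4-UMI cells. At an unadjusted p under 0.05 there were 50 genes, the coreceptor genes included.

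Most cells with the exonuclease gene Isg20 had a Cd8 UMI. It had a UMI in 1 of 85 Cd4-UMI cells (1.18%, 0.0298% to 6.38%), in 41 of 630 Cd8-UMI cells (6.51%, 4.71% to 8.73%) and in 20 of 742 cells with neither (2.70%, 1.65% to 4.13%). At equal depth its share in Cd8-UMI cells was 3.58%, 3.52% and 1.30% in the TAT-CRE mice, against 2.96% and 1.07% in the PBS mice. In cells with neither UMI it was 1.22%, 2.20% and 1.17% in the TAT-CRE mice, against 0.524% and 0.900% in the PBS mice. Cd8-UMI cells were thus higher than cells with neither in 5 of 5 mice. That order is not particular to Isg20. It also held in 5 of 5 mice for at least 1 of the 9 genes, and in 4 of 5 for Bst2. The intervals of Cd4-UMI and Cd8-UMI cells for Isg20 overlapped. The 1 positive Cd4-UMI cell came from TAT-CRE 215 and gave 1.27%, practically that of its Cd8-UMI cells, while the other 4 mice had 0 positive cells among 8 to 22 Cd4-UMI cells. The difference was noticed in these values and has no test.

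Rtp4 gave a UMI in 1 Cd4-UMI cell (1.18%, 0.0298% to 6.38%) and in 28 Cd8-UMI cells (4.44%). Bst2 gave one in 4 (4.71%, 1.30% to 11.6%) and 44 (6.98%). For both genes the interval of the Cd4-UMI cells held the share of the Cd8-UMI cells. Rsad2 had the higher share in Cd4-UMI cells, with 2 (2.35%) against 9 Cd8-UMI cells (1.43%). Irf7 was found in 3 Cd4-UMI cells (3.53%) and 25 Cd8-UMI cells (3.97%), and Zbp1 in 4 (4.71%) and 30 (4.76%). Shares of Irf7 and Zbp1 thus lay within each other's counting error. Isg15 and Usp18 were found in 0 of 85 Cd4-UMI cells, which allows a share of up to 3.53%, and in 9 (1.43%) and 10 (1.59%) of the 630 Cd8-UMI cells. A difference is therefore not detectable with this number of Cd4-UMI cells.

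Other genes of the pathway were taken from lists chosen with results of these data known. None of them passed the edgeR test over all kept cells, and the genes named are among the 3 of each list with the smallest unadjusted p. The counts below stand beside 50.2% of all 6341 tested genes with positive values and 2.14% higher in TAT-CRE mice at an unadjusted p under 0.05. As with the 9 genes, a rare gene can pass the filter through its TAT-CRE counts alone (Mx2 had 0 UMIs in both PBS mice), so they describe the genes that passed. Of 17 interferon receptor and signalling genes 15 were tested, 8 with positive and 7 with negative log2 fold changes (median 0.15). The kinase gene Jak2 gave a log2 fold change of 1.23 ± 0.59 (SE) and Stat2, a signal transducer of the receptors, gave 1.93 ± 1.00.

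Of 12 nucleic acid sensor genes 8 were tested, 7 with positive values (median 0.74), and 2 had an unadjusted p under 0.05, both positive (2.14% of all genes). Trim25, a ubiquitin ligase that acts on the sensor RIG-I, had 17, 18 and 50 UMIs in the TAT-CRE mice, against 4 and 2 in the PBS mice (log2 fold change 3.45 ± 0.87). Here TAT-CRE 215, low for Irf7 and Rtp4, was highest. The helicase gene Ddx60 gave 2.41 ± 0.86 and Ifih1 0.96 ± 0.63. Of 4 genes for ISG15 conjugation 3 were tested (median 0.05), and besides Trim25, which this list also holds, the ligase gene Herc6 gave 0.05 ± 0.73 and the activating enzyme gene Uba7 -0.02 ± 0.69. Levels of Herc6 and Uba7 thus differed between the groups by far less than their errors.

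Of 40 further antiviral effector genes 29 were tested, 24 with positive and 5 with negative values (median 0.41), and 7 had an unadjusted p under 0.05, all positive (2.14% of all genes). Ifit3, of the same family as Ifit1, had 70, 77 and 41 UMIs in the TAT-CRE mice, against 8 and 14 in the PBS mice. Its log2 fold change was 2.84 ± 0.49 (edgeR adjusted p = 0.372). Ifit3 shares sequence with Ifit3b, so reads may be split between them. The chemokine gene Cxcl10 had 32, 46 and 5 UMIs in the TAT-CRE mice, against 1 and 1 in the PBS mice (60.5 ± 60.5 CPM and 1.497 ± 0.431 CPM), in 18 cells altogether, of which 11 were among the 112. Ifit1 had 69, 84 and 66 in the TAT-CRE mice, against 29 and 47 in the PBS mice (1.29 ± 0.36).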

How the data were processed

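The authors deposited whole-number UMI counts for each gene in each well. Processing notes of the submitters name bcl2fastq 2.15.0.4 and mm10; aligner, annotation and use of strand are not given in the sources. A deposited column of counts gives the cells sorted per well: 380 of 384 wells a plate held 1 cell and 4 were empty. Spike-ins were left out. Wells with 1 cell, at least 400 UMIs and at most 30% mitochondrial UMIs were kept. Kept counts were summed per mouse and tested with edgeR 4.0.16 (glmQLFit, TMM, filterByExpr, R 4.3.3), with Benjamini-Hochberg adjustment over all genes; DESeq2 1.42.0 was an alternative. SE is the log2 fold change over the root of F. Cd4-UMI and Cd8-UMI sums of the same mouse were fitted with the mouse as a block, since both come from 1 plate; replicate numbers pair nothing between the groups. The fits were tested on simulated data, with the same dispersion for all genes and changes placed only on genes with larger counts. That is no check of the fits for genes as rare as Usp18, Isg15 and Rsad2. Thinned shares are exact hypergeometric expectations, and intervals are exact binomial (95%). Limits for a count of 0 rest on 3 counts. No doublet caller was run, because wells held 1 sorted cell.

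The members and gene lists were chosen with earlier results of these data known. Named genes were all 9 members, any called gene of 4 pathway lists or else the 3 with the smallest unadjusted p in each, and the 8 genes with the highest ratio of observed to expected detection in cells with at least 2 members (found in at least 20 kept cells and in at least 10 of those cells). Ccl5, Ly6c2 and the genes called under alternatives are named after their values were seen. Some genes that these rules name are not reported here. Because the labels do not say that libraries are single animals, p-values measure the spread between libraries.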

Additional observations from a re-analysis of the deposited data

Results flagged for a closer look

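Wells outside the kept cells also held UMIs of the 9 genes. Of the 20 empty wells 0 had one, which allows a share of up to 15%. Of 195 wells with 1 cell and more than 30% mitochondrial UMIs, 37 (18.97%, exact 95% interval 13.7% to 25.2%) had a UMI of at least 1 of the genes, at a median of 1046 UMIs per well. Of 223 wells with 1 cell and fewer than 400 UMIs, 10 (4.48%, 2.17% to 8.09%) had one, at a median of 125 UMIs, a share that lies within what the empty wells allow. Kept cells had one in 30.3%, at a median of 1662.5 UMIs. The 195 wells entered the comparisons only under the alternatives without the mitochondrial limit. Of the 223 wells, those with at least 200 UMIs and at most 30% mitochondrial UMIs entered only under the alternatives with a minimum of 200 UMIs. The empty wells entered none.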

How the results depend on the processing

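Over all kept cells 0 genes were called, against 1 with DESeq2 (Ifit3), 8 without a filter on low counts and 1 (H2-K2) with each gene limited to 1 UMI per cell; in Cd8-UMI cells 0 were called, against 1 without the filter (Cxcl10) and 1 with the limit to 1 UMI (H2-K2). Between Cd4-UMI and Cd8-UMI cells 2 genes were called, against 9 with DESeq2 and 57 without the filter, and still 2 without the replicate block. The ratio for cells with at least 3 genes was 2.97 with depth bands and 4.33 without. Of 181 alternative log2 fold changes of the 8 tested genes, 170 kept their direction, 11 turned and 0 were called; Ifi27l2a ranged from 0.99 to 1.39 over all kept cells, from 0.92 to 1.53 in Cd8-UMI cells and from -0.43 to 0.61 between the classes. Leaving out 1 mouse at a time gave -0.20 to 0.55 for Zbp1, with PBS 218 the mouse that turned it, and -0.048 (without TAT-CRE 208) to 0.77 for Rtp4. In Cd8-UMI cells it gave -0.27 (without TAT-CRE 207) to 0.60 for Irf7, -0.57 (without PBS 216) to 1.05 for Bst2 and -0.18 (without PBS 218) to 1.54 for Zbp1. Bst2 there was -0.058 without the filter and -0.017 without the mitochondrial limit, and Ifi27l2a between the classes was -0.43 without the filter. The differences in thinned share ran from -0.209 (without TAT-CRE 208) to 0.497 points for Isg15 and from -0.0676 (without PBS 218) to 0.674 points for Zbp1. Where 1 PBS mouse is left, it is assumed to vary like the TAT-CRE mice. The causes were not tested. The difference for at least 1 gene, 7.11 points, ran from 5.19 to 9.65. With ribosomal RNA left out, 1 cell of TAT-CRE 215 was too shallow for thinning. Depth limits the rarer genes, of which Usp18 had 36 UMIs in all.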

Other observations

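Some interferon-inducible genes did not follow Ifi27l2a. The 4 given here are among the 5 with negative log2 fold changes of the 29 antiviral effector genes tested outside the 9, of which 24 were positive, and were chosen for that direction after their values were seen. Ly6e, a membrane protein gene found in 677 of the kept cells, averaged 750 ± 51.3 CPM in TAT-CRE mice, against 738 ± 16.5 in PBS mice (SD), with a log2 fold change of -0.05 ± 0.20 (SE). Shisa5, found in 713 cells, averaged 898 ± 224 in TAT-CRE mice, against 850 ± 15.8 in PBS mice, with a log2 fold change of -0.03 ± 0.19. For Ly6e and Shisa5 the fold change was far smaller than its error. Their mean CPM, which lacks the TMM scaling of the fit, was higher in TAT-CRE mice, so neither gene shows a direction. Ifi27, the relative of Ifi27l2a, averaged 91.2 ± 23.2 in TAT-CRE mice, against 104 ± 9.56 in PBS mice, with a log2 fold change of -0.30 ± 0.33. It was found in 11 of the 112 cells with several of the 9 genes, 1.02 times the expected number. Xaf1, which promotes cell death, averaged 11.7 ± 11.9 in TAT-CRE mice, against 23.6 ± 10.4 in PBS mice. None of the 4 passed the edgeR test over all genes.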
